A study of Sciaenops ocellatus with 36 samples.

Results

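Weathered Deepwater Horizon slick oil was compared with clean water in whole red drum (Sciaenops ocellatus) at 48 hours post-fertilization (hpf). The comparison used the 6 libraries that the table for this oil and age names for these groups, 3 from oil and 3 from clean water, out of 36 samples in the series. Oil libraries are called T4, T5 and T6, and clean-water libraries C4, C5 and C6, after the numbers in their names. Each library was made from a pool of 30 larvae. The oil was a naturally weathered surface oil, labelled at 2.5%, against 0 in clean water. All groups came from brood stock tanks, no genetic change is labelled, and all had been treated with formalin as embryos before exposure. Whether the replicate pools stem from different spawns or tanks is not labelled, and the p-values therefore cover only the spread between these pools, which may be technical. Further groups served only for comparison. These were 3 clean-water libraries of the same age from the source-oil series, slick oil and clean water at 24 hpf with 3 and 2 libraries, slick oil at 72 hpf with 3 libraries, and 3 source-series clean-water libraries at 72 hpf.

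Crude oil carries polycyclic aromatic hydrocarbons, many of which bind the aryl hydrocarbon receptor (AHR). The bound receptor pairs with ARNT and turns on a set of genes led by CYP1A, whose enzyme oxidises these compounds, and AHRR, which represses the receptor. Oxidation of the compounds can yield reactive products, to which cells answer through NRF2 and its antioxidant genes. In fish embryos, the developing heart and eye are known targets of oil. At 48 hpf red drum larvae have hatched and still live on yolk, while the retina, gut and pancreas are maturing.

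The deposited rows carry human gene symbols, so a symbol stands for whatever fish reads were assigned to it. Total counts were 2532771 to 2987286 in the 6 libraries. Markers of the labelled material, whole larvae, were found for all 13 tissues looked for, although APOA1, PNLIP, KRT5, VIL1 and MARCO had no count and TNNT3 had 5 in all. In bulk RNA from whole animals, fewer cells of a type and less RNA per cell cannot be told apart. The oil library T4 stood apart from T5 and T6. Its log2 levels correlated with those of the 3 controls at 0.978, 0.981 and 0.98, with T5 at 0.98 and with T6 at 0.976, against 0.992 between T5 and T6 (Pearson, across genes, which are not independent replicates). The controls differed as well. C4 correlated with T5 and T6 at 0.9776 and 0.9775, C5 at 0.9703 and 0.9683, and C6 at 0.9629 and 0.9627. The names of oil and control libraries also carry running numbers that do not overlap, and if the groups were sequenced in separate runs, run and oil cannot be told apart.

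Of 9091 genes tested, 244 (2.68%) changed at an adjusted p under 0.05 in edgeR's quasi-likelihood test. Of these, 175 were higher with oil (1.92%) and 69 lower (0.759%). Counts in the gene lists below are to be read beside these shares of all genes. The shares higher and lower were 2.46% and 4.71% with source-series controls, and 3.81% and 6.4% without T4. The rises had a median log2 fold change of 0.71, and 55 of them reached 1 or more. The falls were smaller, with a median of -0.59 and 5 at -1 or beyond, and the median of all genes tested was near 0. In 241 of the 244, the 3 oil libraries lay wholly above or below the 3 controls, which was so for 20.5% of all genes tested. The 244 were called on these same values, so this separation largely follows from the call and is no added support. The same holds where single called genes are said below to have groups that do not overlap. The called rises had similar medians over the control mean in the 3 oil libraries, 0.76 in T4, 0.7 in T5 and 0.65 in T6. The called falls did not, with medians of -0.35 in T4, -0.68 in T5 and -0.69 in T6. Both sets were called on these same values, and a call favours genes alike within a group, so these medians are descriptions. Without T4, 941 genes were called (10.2%), 351 higher (3.81%) and 590 lower (6.4%), and all 244 were among them. Leaving out 1 other library lowered the count to 121 (C5), 121 (C6), 102 (T5) and 141 (T6), of which 16, 13, 10 and 12 were lower with oil. Without C4 the count was 285, with 159 higher and 126 lower. T4 was set apart on its position in these same values. Counts without T4 in the lists below are therefore descriptions and no further support. Counts without each other library are not given by list.

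CYP1A1, the cytochrome P450 that oxidises aromatic hydrocarbons, rose most. Its level was 245, 199.6 and 331 CPM (counts scaled to library size) in the controls C4, C5 and C6, and 2754, 3257 and 3185 CPM in the oil libraries T4, T5 and T6. Every oil library stood far above every control, and the fitted log2 fold change was 3.57 ± 0.145 (SE) with an edgeR adjusted p of 7.6e-10. AHRR, the repressor of the receptor, stood at 20.2, 22.7 and 20.4 CPM in the controls and 64.3, 60.2 and 67.9 CPM with oil (log2 fold change 1.6, SE 0.123). CYP1B1, a related oxidising enzyme, went from 2.78, 1.13 and 3.19 CPM to 16, 17.2 and 20.4 CPM (2.89, SE 0.294), and its control values rest on few reads. FOXQ1, a forkhead transcription factor, rose from 26.8, 30.6 and 28.4 CPM to 58.3, 50.7 and 43.8 CPM (0.83, SE 0.136). None of the 4 genes had an oil library within the range of the controls. The receptor itself did not pass the test. AHR was at 29.5, 29.5 and 25.6 CPM in the controls and 36, 26.7 and 31.2 CPM in the oil libraries, and the groups overlapped. Against source-series controls, however, AHR had 0.59 and was called higher (edgeR adjusted p = 0.031). Of 13 genes tested for the receptor, its partners and its targets, these 4 rose and none fell, against 1.92% of all genes that rose. The median of the 13 was 0.15. Against source-series controls 5 of the 13 rose and 0 fell, with a median of 0.13, against 2.46% of all genes that rose. TIPARP, another known target, had no count in the 6 libraries.

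**Figure D1:**
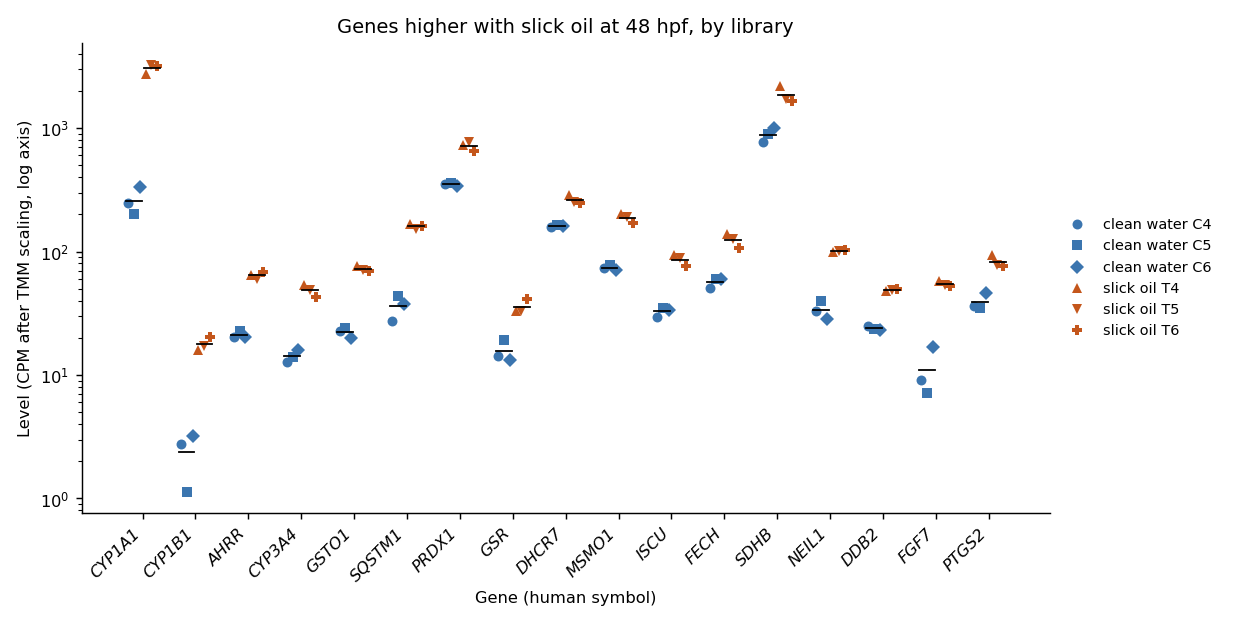
Levels of 17 genes in each of the 6 libraries at 48 hpf (CPM after TMM scaling, log axis). Blue symbols are the 3 clean-water libraries, orange symbols the 3 slick-oil libraries, and black bars the mean of each group. The genes shown were chosen among those called higher on these same values. In each of them the 3 oil libraries lie above the 3 controls, and CYP1A1 shows the widest gap.

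Other enzymes that modify foreign compounds had 4 rises and 1 fall among 27 tested, with a median of 0.12. CYP3A4, a broad-range cytochrome P450, rose from 12.9, 14 and 16 CPM to 53.6, 49 and 42.4 CPM (log2 fold change 1.76, SE 0.154, edgeR adjusted p = 5.5e-06). GSTO1, an omega-class glutathione transferase, rose from 22.6, 23.8 and 20 CPM to 76.2, 70.3 and 69.9 CPM (1.7, SE 0.12). Neither gene had overlapping groups. POR, which passes electrons to microsomal P450 enzymes, rose by 0.5, and ABCC3, an export pump for conjugates, by 0.61. CYP26A1, which breaks down retinoic acid, fell by 0.97 on the log2 scale, from 15.3, 22.3 and 30.4 CPM to 9.99, 11.5 and 12.9 CPM. Against source-series controls POR had 0.28 and CYP26A1 -0.565, and neither was called. SQRDL, the mitochondrial enzyme that oxidises hydrogen sulfide, rose from 19.1, 21.9 and 24 CPM to 94.6, 71 and 61.4 CPM (1.81, SE 0.165). It was the single call among 7 genes of sulfide metabolism, whose median was -0.05.

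Of 29 genes tested for oxidative stress and glutathione, 13 rose, none fell and 16 did not pass the test, and the median log2 fold change was 0.44. SQSTM1, an autophagy receptor that also frees NRF2, was at 27.5, 43.5 and 37.9 CPM in the controls and 168, 153 and 162 CPM with oil, a difference of 2.16 (SE 0.128, edgeR adjusted p = 1.1e-07). PRDX1, an abundant peroxide-removing enzyme, went from 349, 357 and 342 CPM to 735, 772 and 651 CPM (1.04, SE 0.082). GSR, which regenerates glutathione, went from 14.3, 19.3 and 13.2 CPM to 33, 32.8 and 41.1 CPM (1.19, SE 0.173). Each oil library lay above every control in all 3 genes. GCLC, the catalytic subunit of the enzyme that limits glutathione synthesis, rose by 0.95, PRDX6 by 1.02 and OSGIN1, an oxidative-stress growth inhibitor, by 1.2. Other members that rose were PRDX2, PRDX3, PRDX4, SOD2, SRXN1 and TXNRD3. CAT, which encodes catalase, did not pass the test, with 167, 155 and 154 CPM against 176, 197 and 179.6 CPM. Against the source-series controls of the same age, 10 of the 29 rose and 1 fell.

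Of 38 subunits tested of the proteasome, which degrades tagged proteins, 17 rose and none fell. Among the 38, 37 had a positive fold change and the median was 0.42. PSMB5, a catalytic subunit, was at 280.4, 256 and 253 CPM in the controls and 343, 417 and 405 CPM with oil (0.56, SE 0.089, edgeR adjusted p = 0.0018). PSMC2, an ATPase of the regulatory cap, rose from 84.1, 76.8 and 79.1 CPM to 100.2, 132 and 135 CPM (0.61, SE 0.114). T4 was the lowest of the oil libraries in both. The median over all 38 genes relative to the control mean was 0.25 in T4, 0.5 in T5 and 0.49 in T6, against 0.1, 0.02 and -0.12 in C4, C5 and C6, and 31 of the 38 rose when T4 was left out. With the source-series controls in place of the slick-series ones, a single subunit was called and the median was 0.11. Chaperones had 2 rises among 30, HSPA9, the mitochondrial HSP70, at 0.65 and the co-chaperone DNAJA4 at 0.64. DNAJA4 had 0.23 against source-series controls and was not called there. Of 32 genes of autophagy and the lysosome 4 rose, SQSTM1 and the lysosomal proteases CTSD (0.52), CTSL (0.38) and CTSZ (0.47). Against the source-series controls, CTSD, CTSL and CTSZ had 0.26, -0.0022 and 0.28 and were not called. No gene of the 24 tested for endoplasmic reticulum stress was called, and their median was 0.0017.

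Of 25 enzymes tested of cholesterol synthesis, 6 rose, none fell and 19 did not pass the test. A positive fold change was found for 24, with a median of 0.41. MSMO1, which removes methyl groups from sterols, rose from 73, 77.5 and 71.5 CPM to 200.1, 189 and 171 CPM (log2 fold change 1.33, SE 0.093, edgeR adjusted p = 6.6e-07). DHCR7, which acts at the last steps, rose from 159, 164 and 161 CPM to 288, 252 and 247 CPM (0.7, SE 0.085). The control and oil libraries were well apart for both. CYP51A1 rose by 1.08 and TM7SF2 by 0.64, both enzymes of later steps. Against source-series controls 12 of the genes rose and none fell, with a median of 0.45. SQLE had 45 counts in all and was not tested.

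Among 19 genes of lipoprotein and lipid transport, 3 rose. SOAT2, which esterifies cholesterol, was at 122, 93.8 and 89 CPM in the controls and 185, 284 and 254 CPM with oil (1.24, SE 0.144), and its relative SOAT1 rose by 1.04. With source-series controls, however, SOAT2 had a fold change of -0.0043 and SOAT1 of -0.21, and neither was called. The clean-water libraries of the slick series were lower than those of the source series by 1.23 (SOAT2) and 1.24 (SOAT1) on the log2 scale. LIPG, an endothelial lipase, rose by 1.03 and had 0.48 against the source series (edgeR adjusted p = 0.07). The summed level of the liver and yolk markers FGB, APOB and SERPINC1, with APOA1 at 0, was 202 to 309 CPM in the controls and 290, 453 and 457 CPM in T4, T5 and T6, and their part in these results was not tested.

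Of 59 genes of the respiratory chain and the citric acid cycle, 4 rose and none fell, against 1.92% of all genes that rose. Their median was -0.03. SDHB, the iron-sulfur subunit of succinate dehydrogenase, was at 766, 895 and 992 CPM in the controls and between 1644 CPM in T6 and 2201 CPM in T4 with oil (1.07, SE 0.114, edgeR adjusted p = 4.3e-05). SDHA, the flavoprotein subunit of the same enzyme, rose from 758, 934 and 937 CPM to 1796, 1360 and 1333 CPM (0.77, SE 0.114). NDUFV1, a complex I subunit that binds flavin and an iron-sulfur cluster, rose from 1186, 1307 and 1371 CPM to 2472, 2142 and 2027 CPM (0.78, SE 0.09). All 3 were highest in T4, and the control and oil libraries did not overlap. CYCS, cytochrome c, rose by 0.44. ISCU, the scaffold on which iron-sulfur clusters are built, was among the 12 largest rises of well-expressed genes, from 29.5, 35.2 and 33.5 CPM to 93.6, 88.6 and 76 CPM (1.4, SE 0.12). Against the source-series controls, 4 genes of the 59 rose and 21 fell, with a median of -0.28.

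Of 65 genes of amino-acid and one-carbon metabolism, 6 rose and 1 fell, with a median of 0.09. Against source-series controls 5 of 64 tested were higher and 14 lower, with a median of -0.1. GCDH, of lysine breakdown, rose from 93.8, 119 and 156 CPM to 344, 289 and 280.4 CPM (1.31, SE 0.139), and FAH, of tyrosine breakdown, from 29.5, 21.9 and 18.4 CPM to 57.6, 63.5 and 59.1 CPM (1.35, SE 0.148). HGD, an earlier enzyme of the same pathway, rose by 1.11. ACADSB and IVD, of branched-chain amino-acid breakdown, rose by 1.06 and 0.82, and UROC1, of histidine breakdown, by 0.9. HGD and UROC1 were not called against source-series controls, where they had 0.47 and 0.25. The single fall was DMGDH. ETFDH, which passes electrons from such dehydrogenases to ubiquinone, rose from 568, 584 and 577 CPM to 976, 907 and 806 CPM (0.64, SE 0.083). Of 30 genes of fatty-acid oxidation and peroxisomes, ETFDH and ACADM (0.43) rose, and ACADS, its short-chain relative, fell by 0.36. Against source-series controls ACADM had 0.15 and ACADS -0.16, and neither was called. In glycolysis, GAPDH fell and 39 other genes were not called. Without T4 13 of the 40 fell, with a median of -0.29, and against source-series controls 16 fell, with a median of -0.39. LDHA spread widely, at 14.6, 31.8 and 33.5 CPM against 64.6, 34.8 and 24.8 CPM, and the groups overlapped.

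Among 18 genes of heme synthesis and globins, 2 rose and 1 fell. FECH, which puts iron into heme and itself holds an iron-sulfur cluster, rose from 50.7, 59.7 and 59.9 CPM to 139, 126 and 107 CPM (1.13, SE 0.114, edgeR adjusted p = 2.6e-05). UROD, an earlier enzyme of the pathway, rose from 51.8, 44.2 and 42.7 CPM to 75.9, 83.5 and 86.2 CPM (0.82, SE 0.11). HBE1, an embryonic globin in humans, fell from 65.7, 60.5 and 68.7 CPM to 36.6, 37.2 and 37.7 CPM (-0.8, SE 0.108). The 3 oil libraries were almost equal for this globin and well below each control. The red-cell markers other than this globin, ALAS2 and SLC4A1, did not behave alike. ALAS2 was at 63.1, 76.9 and 90 CPM in the controls and 95.3, 68.8 and 72.4 CPM with oil, and the groups overlapped. SLC4A1 was at 14.9, 19.2 and 15.1 CPM against 6.97, 10.1 and 12.9 CPM, with each oil library below every control. Their sum, mostly ALAS2, was 78, 96.2 and 105 CPM in the controls and 102, 78.9 and 85.3 CPM with oil.

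A few genes of the DNA damage response were higher. Of 30 p53 targets and apoptosis genes, 3 rose and none fell, with a median of 0.07. DDB2, which finds damage caused by ultraviolet light, was at 25, 23.4 and 23.2 CPM in the controls and 48.3, 48.7 and 49.9 CPM with oil (1.03, SE 0.123, edgeR adjusted p = 0.00011). XPC, which opens nucleotide excision repair, rose from 10.8, 11.7 and 13.6 CPM to 29, 26.7 and 20.7 CPM (1.09, SE 0.186), and RRM2B, a ribonucleotide reductase subunit, by 0.7. NEIL1, a glycosylase that removes oxidised bases, was at 33, 40.1 and 28.4 CPM against 99.2, 101.7 and 103 CPM (1.58, SE 0.118). Each of these genes had its oil libraries above its controls. RRM2B had 0.38 against source-series controls and was not called there. Of 44 cell-cycle and replication genes, 1 rose and none fell, which is near the 1.92% of all genes that rose. The gene that rose was RRM2, the main small subunit of ribonucleotide reductase, at 155, 143 and 134 CPM against 249, 308 and 259.7 CPM (0.92, SE 0.097). PCNA, the replication clamp, had 36.8, 35.5 and 37.5 CPM against 28.6, 39.2 and 38.7 CPM and did not pass.

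Among signalling genes, FGF7, a growth factor made by mesenchyme that acts on epithelium, rose most. Its level was 9.04, 7.18 and 16.8 CPM in the controls and 57.9, 53.1 and 53 CPM with oil (2.33, SE 0.202, edgeR adjusted p = 5.5e-06). NOTUM, an enzyme that inactivates Wnt ligands, rose from 61.5, 66.2 and 68.3 CPM to 106, 90.6 and 92 CPM (0.56, SE 0.101). IGFBP2, which binds insulin-like growth factors, fell by 0.48. The list of 44 growth-factor and Wnt genes held these 3 calls, with a median of 0.05. Of 24 inflammation and cytokine genes 3 rose, with a median of 0.1. PTGS2 and PTGS1, the cyclooxygenases that start prostaglandin synthesis, rose from 36.1, 34.8 and 45.9 CPM to 93.9, 77.1 and 76 CPM (1.08, SE 0.129) and from 32, 31 and 35.5 CPM to 58.3, 62.2 and 67.9 CPM (0.94, SE 0.117). STAT3, a transcription factor activated by cytokines, rose by 0.45. Both cyclooxygenase genes had control and oil libraries that did not overlap. CRTAC1, a secreted cartilage protein, rose from 82.7, 106 and 123 CPM to 374, 284 and 254 CPM (1.55, SE 0.145). C1orf50 rose by 1.4. MMP9, a matrix protease, had 8 counts in all and was not tested.

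Of 30 genes tested of phototransduction, the cascade by which rods and cones turn light into a signal, 9 fell and none rose, against 0.759% of all genes that fell. The other 21 did not pass the test, and 29 of the 30 had a negative fold change. Their median was -0.66. GNAT2, the cone transducin, was at 579, 747 and 692 CPM in C4, C5 and C6, and at 565, 299.5 and 309.6 CPM in T4, T5 and T6. T4 lay just below the lowest control and T5 and T6 far below it, and the fitted difference was -0.78 (SE 0.18, edgeR adjusted p = 0.028). GNAT1, the rod transducin, showed the same order, at 315, 373 and 351 CPM against 294, 174 and 191 CPM (-0.66, SE 0.146). PRPH2, which shapes the outer segment disks, had 340.2, 433 and 468 CPM against 346, 150.4 and 134 CPM (-0.97, SE 0.246), and T4 lay within the range of the controls. GUCA1A, an activator of guanylate cyclase, was lower in all 3 oil libraries, at 20.5, 22.3 and 26 CPM against 10.7, 5.41 and 6.11 CPM (-1.62, SE 0.231, edgeR adjusted p = 0.00062). GNB3 fell by 0.66, GNGT2 by 1.07 and ARR3, the cone arrestin, by 0.72 on the log2 scale. UNC119 fell as well.

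Over the 30 genes, the median relative to the control mean was -0.12 in T4, -0.95 in T5 and -1.01 in T6, while C4, C5 and C6 had -0.19, 0.09 and 0.13. T4 was within the range of the controls in 13 genes, T5 in 1 and T6 in 2. Without T4, set apart on these same values, 28 of the 30 fell, with a median of -0.98. With source-series controls and all 3 oil libraries, 20 fell, with a median of -0.96. No transcription factor of the eye and photoreceptors was called among 26 tested, and their median was -0.03. Lens genes had 1 fall, CRYBA4, among 14, and a median of -0.27.

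**Figure D2:**
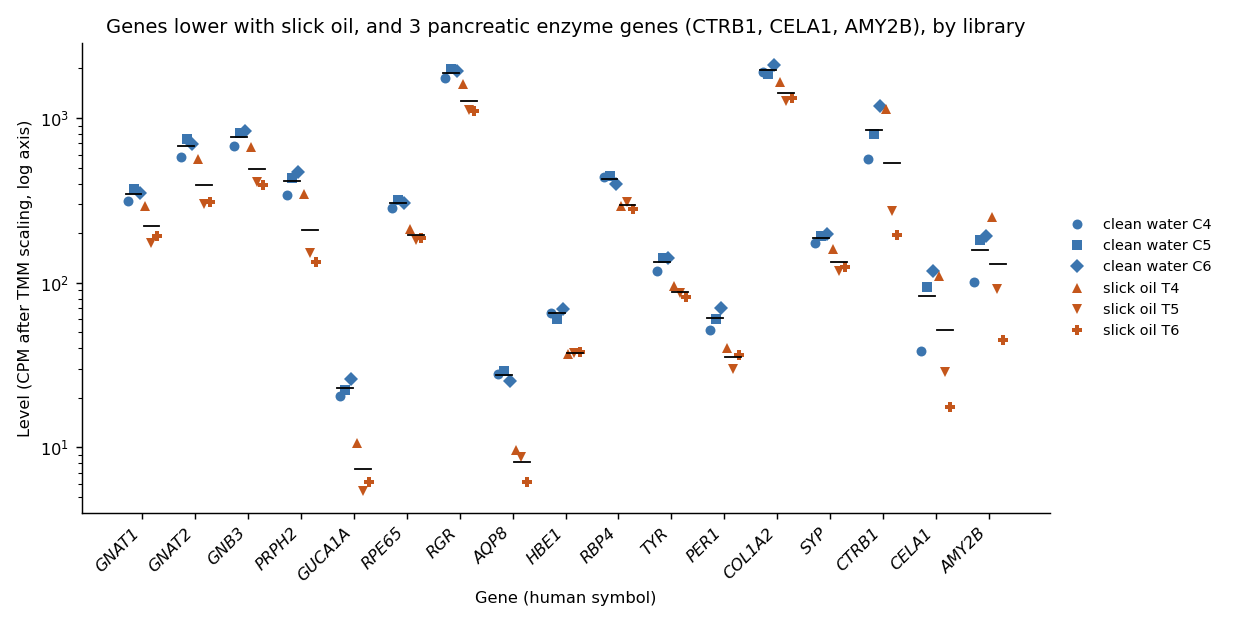
Levels of 17 genes in each of the 6 libraries at 48 hpf (CPM after TMM scaling, log axis). Blue symbols are clean water, orange symbols slick oil, and black bars group means. T4 (upward triangle) lies near the controls for GNAT1, GNAT2, GNB3 and PRPH2 and within or above them for the enzyme genes CTRB1, CELA1 and AMY2B, which were not called, but with T5 and T6 for AQP8, HBE1, RBP4 and TYR.

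Genes of the retinal pigment epithelium and retinoid handling included 4 falls among 27, with a median of -0.18. RPE65, which makes the visual chromophore, was at 285, 319.5 and 303 CPM in the controls and 213, 181 and 187 CPM with oil (-0.64, SE 0.087, edgeR adjusted p = 0.00034). RBP4, the carrier of retinol in plasma, fell from 438, 442 and 397 CPM to 293, 311 and 279 CPM (-0.53, SE 0.08). Both were lower in all 3 oil libraries, T4 included. RGR, a light-sensing opsin of that epithelium, fell from 1742, 1995 and 1925 CPM to 1601, 1116 and 1110 CPM (-0.56, SE 0.119). CYP26A1 was the last of the 4. Of 20 pigment-cell genes 2 fell, the melanin enzymes TYR, from 118, 141 and 141 CPM to 94.9, 86.5 and 82.1 CPM (-0.6, SE 0.1), and DCT (-0.47). Without T4, 6 of the 20 fell. The summed level of the pigment-cell markers DCT, PMEL and TYRP1 was 812 to 1010 CPM in the controls and 794, 621 and 632 CPM in T4, T5 and T6, and their part in the result was not tested.

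Of 59 synaptic genes tested, 2 fell, the vesicle protein SYP (-0.48) among them, against 0.759% of all genes that fell. A negative fold change was found for 57, with a median of -0.28. Without T4, 40 of the 59 fell, with a median of -0.42, against 6.4% of all genes. With source-series controls 7 fell, against 4.71% of all genes. The library medians were -0.1 in T4, -0.41 in T5 and -0.36 in T6. Summed levels of the neuron markers SNAP25, ELAVL3 and SYT1 were 434 to 485 CPM in controls and 441, 390 and 401 CPM in T4, T5 and T6, and their part in the result was not tested.

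Levels of digestive enzyme genes varied widely between libraries of the same group. None of 19 genes of the exocrine pancreas and gut was called, with a median of -0.32 and 18 negative fold changes. The median relative to the control mean was -0.53, 0.18 and 0.34 in C4, C5 and C6, and 0.35, -0.73 and -1.21 in T4, T5 and T6. T4 was at the upper end of the controls and T6 the lowest of all. The chymotrypsin gene CTRB1, named after its values were seen, was at 562, 801 and 1187 CPM in the controls and 1128, 274 and 196 CPM with oil. Elastase CELA1, a marker of the exocrine pancreas, followed the same order at 38.6, 94.5 and 117 CPM and 109, 28.7 and 17.7 CPM. AMY2B, an amylase also named after its values were seen, was at 101, 181 and 193 CPM and 251, 91.3 and 44.8 CPM. Without T4 14 of the 19 fell, with a median of -1.12, and with source-series controls 14 fell, with a median of -1.43. The summed level of the exocrine pancreas markers CPA1, CPB1 and CELA1 was 119, 222 and 248 CPM in the controls and 274, 104 and 71.4 CPM with oil, with PNLIP, the last of the markers, at 0. ASTL, the symbol taken as a hatching-gland marker, was at 261, 412 and 345 CPM in the controls and 325, 90.7 and 54.5 CPM in T4, T5 and T6.

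**Figure D3:**
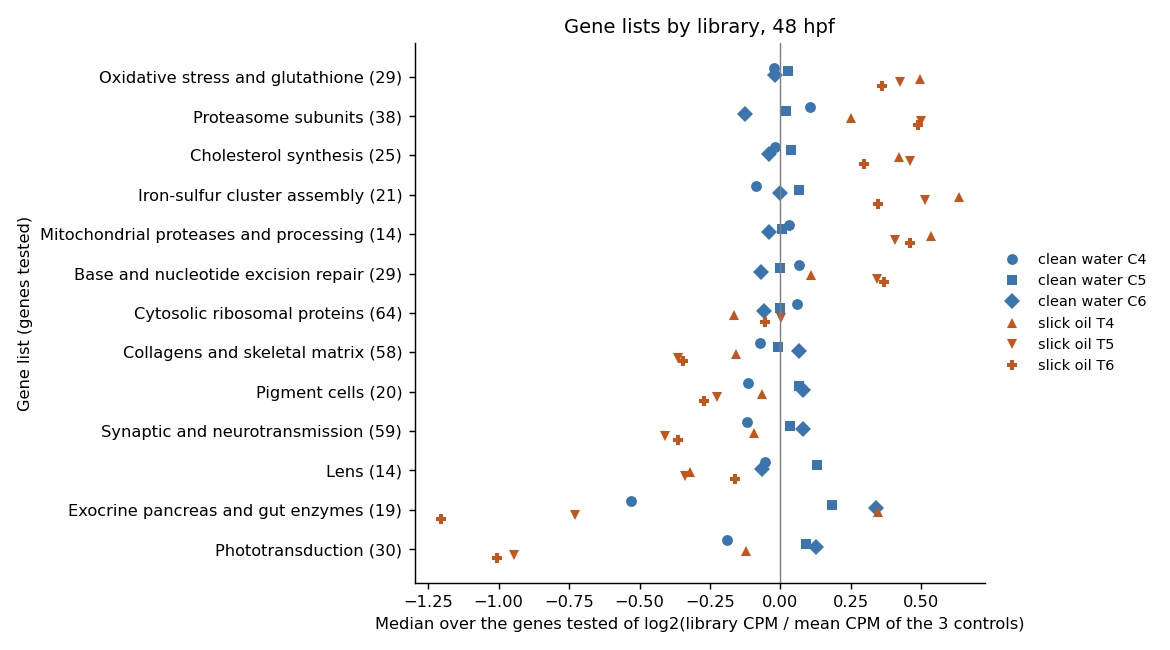
Median, over the genes tested in each list, of the log2 ratio of a library's CPM to the mean of the 3 controls, by library. Blue symbols are clean water and orange symbols slick oil. The lists of iron-sulfur cluster assembly, mitochondrial proteases and excision repair were chosen after their values were seen, so their position is a description only. For oxidative stress, cholesterol synthesis and iron-sulfur cluster assembly all 3 oil libraries lie above the controls. For phototransduction and digestive enzymes T4 lies within or at the edge of the controls and T5 and T6 lie below them.

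Of 58 genes tested of collagens and the skeletal matrix, 6 fell and none rose. Among the 58, 53 had a negative fold change and the median was -0.31. COL1A2, a chain of the main collagen of skin and bone, was at 1898, 1847 and 2107 CPM in the controls and 1645, 1274 and 1317 CPM with oil (-0.47, SE 0.098). COL4A5 and COL4A1, of basement membranes, fell by 0.44 and 0.4, COL7A1 by 0.68, COL16A1 by 0.59 and COL5A3 by 0.32 on the log2 scale. Of these 6, COL4A1 was the one that was also called against source-series controls, where COL5A3 and COL7A1 had positive values of 0.07 and 0.29. In the whole list, 13 of 57 genes were lower and 1 higher against those controls, with a median of -0.28. Of all genes, 4.71% were lower there. Without T4, 27 of the 58 fell. Of the 6 collagens named, none was called when T5 was left out, and none when T6 was left out. COL7A1 and COL16A1 were also not called in a fit with DESeq2.

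The counts of muscle and heart genes stand beside 1.92% of all genes that rose and 0.759% that fell. Of 36 skeletal muscle genes, the slow and fast myosin-binding proteins MYBPC1 (-0.7) and MYBPC2 (-0.35) fell, and FBXO32, a ubiquitin ligase of muscle wasting, rose, at 34.1, 22.7 and 22.8 CPM against 75.2, 69 and 30.9 CPM (1.13, SE 0.259). Against source-series controls FBXO32 had -0.19. Of 24 genes of the heart sarcomere and its peptides, FHL2 fell, and the median was -0.16. MYL7, a myosin light chain of the heart, was at 13.6, 12.5 and 8.78 CPM against 9.99, 9.8 and 10.2 CPM. TNNT2, cardiac troponin T, was at 9.38, 10.2 and 12.8 CPM against 8.66, 8.79 and 8.83 CPM. The groups overlapped for MYL7 and not for TNNT2, and neither passed the test. Against source-series controls MYL7 had -0.94 and was called lower (edgeR adjusted p = 0.0074), while TNNT2 had -0.4 and was not called. Of the 24 heart sarcomere and peptide genes, 5 were lower and 0 higher there, against 4.71% of all genes that were lower. NPPA had no count. None of 23 cardiac transcription factors and none of 39 genes of calcium handling was called. Over the 41 lists, 9 held no call.

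AQP8, a water channel, had the deepest fall of the 244, from 27.8, 29.1 and 25.2 CPM to 9.66, 8.79 and 6.11 CPM (-1.74, SE 0.191, edgeR adjusted p = 5.8e-05). All 3 oil libraries were well below the controls. It belongs to a list of 32 ion-transport genes, in which RHAG, an ammonia channel of red cells and gill, rose from 202, 202 and 214 CPM to 289, 277.5 and 255 CPM (0.41, SE 0.081). CRISP3, a secreted cysteine-rich protein, fell from 110.5, 80.9 and 78.7 CPM to 42.3, 54.8 and 54 CPM (-0.84, SE 0.14). FHL5 (-0.69), ITGBL1 (-0.68) and TRPM3 (-0.69) were also among the 12 largest falls of well-expressed genes. Of 22 clock genes, PER1, a repressor of the clock, fell from 51.8, 60.1 and 70.3 CPM to 40, 30.1 and 36.3 CPM (-0.77, SE 0.139), NR1D2 fell by 0.6 and TEF rose by 0.47. Against source-series controls RHAG had 0.17, TRPM3 -0.17, PER1 -0.18 and NR1D2 -0.52, and none of them was called.

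Clean-water libraries of the source-oil series, of the same age, gave a second set of controls for the same oil libraries. Clean water of the 2 series differed in 405 genes (4.45%), 186 higher (2.04%) and 219 lower (2.41%) in the slick series. Against the source-series controls, 658 of 9174 genes were called (7.17%), 226 higher (2.46%) and 432 lower (4.71%). Of the 175 rises, 170 kept their sign and 100 were called again, with a median of 0.54 in place of 0.71. Of the 69 falls, 66 kept their sign and 41 were called again, with medians of -0.58 and -0.59. None of the 244 was called in the opposite direction. CYP1A1 had 2.8 and AQP8 -2.09 against these controls. The oil libraries are the same in both comparisons, so they are not independent. For cytosolic ribosomal protein genes the calls depended on the control series. None of 64 was called against the slick-series controls, with a median of -0.06, and 51 were lower against the source-series controls, with a median of -0.39, while 33 of the 64 were lower in clean water of the slick series than in that of the source series.

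**Figure D4:**
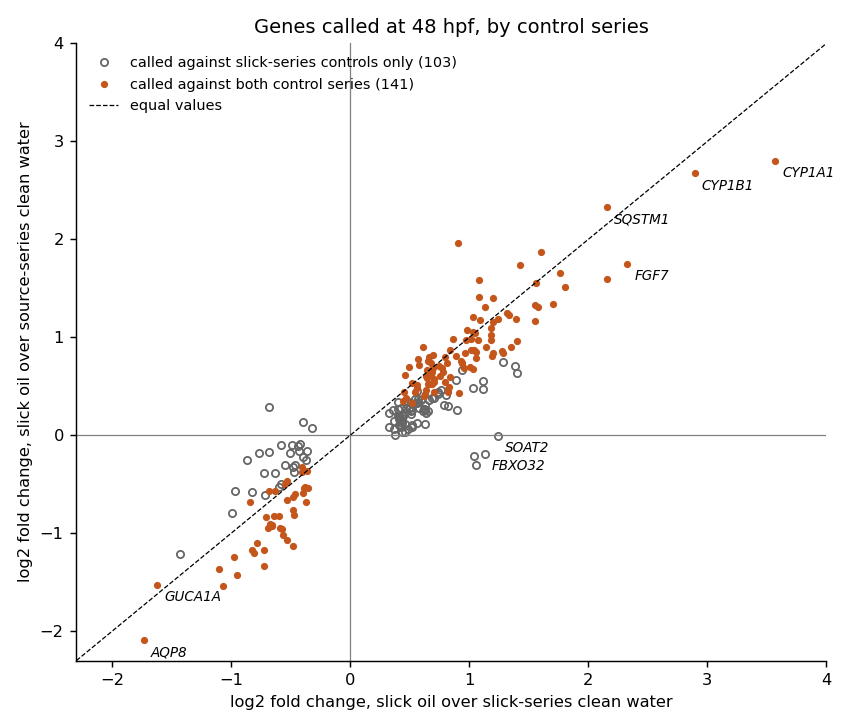
Log2 fold change of the 244 genes called at 48 hpf against slick-series clean water (x axis) and against source-series clean water (y axis). Filled points were called against both (141) and open points against slick-series controls only (103), and the dashed line marks equal values. Both axes share the 3 oil libraries. CYP1A1, the largest rise, is at 3.57 on the x axis and 2.8 on the y axis, and SOAT2 and FBXO32 lie below 0 on the y axis.

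The oil effect was set beside that at 24 and 72 hpf. At 24 hpf 196 genes were called (2.19%), 1.62% of the genes tested higher and 0.569% lower. At 72 hpf 1673 were called against source-series controls (18.6%), 8.55% higher and 10.1% lower. Of the 48 hpf rises, 88 of 174 were called higher at 24 hpf as well and 127 of 175 at 72 hpf. Of the falls, 9 of 63 were called lower at 24 hpf and 31 of 68 at 72 hpf. CYP1A1 had log2 fold changes of 3.63, 3.57 and 3.63 at 24, 48 and 72 hpf. GUCA1A, PRPH2 and ARR3 were not tested at 24 hpf, and the phototransduction genes tested there had a median of -0.05 over 14 genes. At 72 hpf 16 of the 30 fell and 3 rose, and the median was -0.35. The test of the difference between 48 and 24 hpf called no gene of 9498 (0%), with 1078 at an unadjusted p under 0.05 and a smallest edgeR adjusted p of 0.151. Without T4 it called 190 genes.

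The difference between 72 and 48 hpf was called for 674 of 9400 genes (7.17%), 278 with a higher (2.96%) and 396 with a lower fold change (4.21%) at 72 hpf. The 72 hpf controls are source-series libraries, so age and series cannot be told apart in this test. With source-series controls at both ages, 108 genes were called (1.15%), 59 higher (0.626%) and 49 lower (0.52%), and 76 genes were called in the same direction both ways. NR1D2, a repressor of the clock, was lower with oil at 48 hpf (-0.6) and higher at 72 hpf (1.22), a difference of 1.8 (SE 0.154, edgeR adjusted p = 8.5e-08) that was 1.72 with source-series controls at both ages. PER1 and PER3 had differences of 1.72 and 1.61, and 1.12 and 1.17 with source-series controls (edgeR adjusted p = 0.05014 and 0.0053). AHRR rose by more at 72 hpf (2.93) than at 48 hpf (1.6), a difference of 1.31 that was 1.03 with source-series controls. RRM2 had 0.92 at 48 hpf and -0.19 at 72 hpf, a difference of -1.13 and of -0.64 with source-series controls. TYR, CYP26A1, NOTUM, TEF, MYBPC1, RHAG, CTSZ and UROC1 were also called in both forms of the test. The differences for SOAT1, SOAT2, FBXO32, HGD, FAH, GSTO1, PKHD1L1 and FOXQ1 were called in the first form but not in the second. Among the 64 ribosomal protein genes, 62 had a lower fold change at 72 hpf in the first form and 5 in the second.

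**Figure D5:**
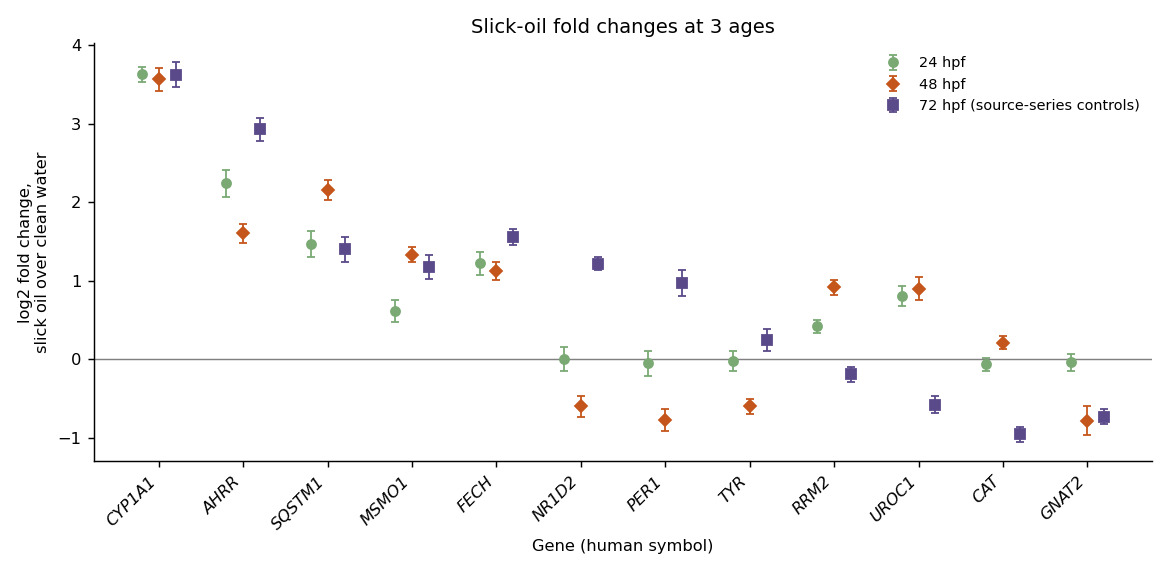
Log2 fold change of slick oil over clean water for 12 genes at 24, 48 and 72 hpf, with bars for 1 SE on either side. The 72 hpf values use source-series controls. CYP1A1 lies between 3.57 and 3.63 at all 3 ages, NR1D2 and PER1 are below 0 at 48 hpf and above 0 at 72 hpf, and RRM2 and UROC1 are above 0 at 48 hpf and below it at 72 hpf.

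The change with age in clean water was measured in source-series libraries, none of which enters the 48 hpf comparison of oil with slick-series controls. From 48 to 72 hpf, 2812 of 9117 genes changed (30.8%), 17.2% of those tested upward and 13.6% downward. Of the genes higher with oil, 33.7% rose with age and 8.72% fell, against 16.7% and 13.9% of all genes tested in both. Of the genes lower with oil, 30.4% rose with age and 21.7% fell. Among the groups described above, 17 of the 19 digestive enzyme genes rose with age, with a median of 2.87, and 11 of the 30 phototransduction genes rose and 3 fell, with a median of 0.14. Of 57 collagen and matrix genes 38 fell with age and 2 rose, and AQP8, TYR and RPE65 fell by 3.07, 1.64 and 0.89. SQSTM1, CYP3A4 and PTGS2, higher with oil, rose by 1.76, 1.86 and 1.78 with age, while CYP1A1 had -0.49 and was not called.

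The authors' deposited table for these libraries gives 208 genes past an adjusted p of 0.05, 136 higher and 72 lower. Of these, 179 were called here in the same direction, none in the opposite direction and 29 not at all, with edgeR adjusted p up to 0.0908. Of the 244 genes called here, 47 have an adjusted p above 0.05 in the authors' deposited table and 18 have none there. In the authors' deposited table the largest log2 fold change is 2.46, for CYP1A1, and the lowest -1.07, for AQP8.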

How the data were processed

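Whole-number read counts were deposited in a table of 56346 rows for each comparison, with 1 column per library. The authors' deposited log2 fold changes and p-values in the same table are DESeq2 results, per the file headers, and were only set beside the fit made here. The submitters' processing notes name HTSeq, DESeq2 and the human build hg19. How fish reads were assigned to human symbols, and with which aligner and reference, is not given in the sources used here. Fish paralogs may be merged under a symbol, and no genome position is given. Groups came from the labels and columns from library names. Several headers contradict their table. The 3 columns labelled as 48 hpf source oil hold the counts of the slick-series controls, 1 control column of the 24 hpf table is a 48 hpf library and was left out, and the 72 hpf controls are source-series libraries. The 20 libraries used had 2532771 to 3280939 counts, and 13 other per-sample columns were not used.

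R 4.3.3 and edgeR 4.0.16 were used for the fits, with filterByExpr, TMM scaling, the quasi-likelihood F test and Benjamini-Hochberg adjustment over all genes tested, with a call at an adjusted p under 0.05. SE is the fold change divided by the square root of F. CPM are after TMM scaling. DESeq2 1.42.0, other scalings, filters, control series and leaving out each library were tried. The script was tested on simulated data first. In data modelled on the 48 hpf comparison, 40 of 100 genes given the smaller change and 85 of 100 given the larger were called. Of the 138 calls made there, 13 were false.

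The comparison and the 41 gene lists were chosen with earlier results of these data known. The text names, among calls whose level reached the median, the 12 with the highest and the 12 with the lowest fold change. It also names up to 6 members by adjusted p from each list with at least 2 calls, fixed genes of interest, and the 6 smallest adjusted p in each direction for differences between ages. Others are said to be named after their values were seen, and single calls in a list were also named after the fact. Some genes chosen in this way are not reported here, though they stayed in every fit and count. One called symbol, MEMO1, stands on 2 rows with identical counts.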

Additional observations from a re-analysis of the deposited data

Results flagged for a closer look

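For 29 named genes, the slick-oil effect at 72 hpf differed from that at 48 hpf in edgeR's test of the difference itself, on the log2 scale. The 72 hpf controls are source-series libraries, so a difference between the series cannot be told apart from one between ages in this test. With source-series controls at both ages, 17 of the 29 were called in the same direction and 12 were not. These 12 were SOAT2 (-0.33), SOAT1 (0.19), FBXO32 (0.035), HGD (-0.06), FAH (-0.44), GSTO1 (-0.26), PKHD1L1 (0.13), CACNA1A (0.23), TRPM3 (0.53), PCNA (-0.55), FOXQ1 (0.61) and PER1 (1.12). In the first form, larger (more positive) values at 72 hpf were found for the clock genes NR1D2 (1.80), PER1 (1.72), PER3 (1.61) and TEF (0.64), and for ZNF395 (1.79), CYP26A1 (1.64), AHRR (1.31), PKHD1L1 (1.20), TRPM3 (1.05), CACNA1A (0.94), TYR (0.82), NOTUM (0.78), MYBPC1 (0.74), FOXQ1 (0.65) and RHAG (0.51). Lower values at 72 hpf were found for SOAT2 (-1.57), UROC1 (-1.50), FBXO32 (-1.27), CAT (-1.19), RRM2 (-1.13), XPNPEP1 (-1.08), SOAT1 (-1.06), RORB (-0.98), NMRK2 (-0.94), PCNA (-0.92), FAH (-0.88), CTSZ (-0.80), HGD (-0.70) and GSTO1 (-0.61). Several of them were named by their small p in this same test.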

How the results depend on the processing

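The 244 calls at 48 hpf stayed within 1.5 times under RLE (251) and upper-quartile (267) scaling, no filter on low counts (282), a minimum of 50 counts (232), DESeq2 (209, of which 187 are among the 244) and controls of both series (292). They numbered 658 with source-series controls and 487 with the spread taken over 3 ages. Leaving out 1 library gave 102 to 941. The rises made up 71.7% of the calls, 37.3% without T4 and 34.3% with source-series controls. Of 101 named genes called, 49 were called in the same direction under every alternative they could be tested in, the block aside, CYP1A1, AHRR, CYP1B1, SQSTM1, ISCU, FECH, RPE65, GUCA1A and AQP8 among them. The sign changed with source-series controls alone, for COL5A3 (0.071), COL7A1 (0.29), CTSL (-0.0022), FBXO32 (-0.19), SOAT1 (-0.21) and SOAT2 (-0.0043). None of these was called there, the values of CTSL and SOAT2 were near 0, and the cause was not tested. The difference between 48 and 24 hpf called 0 genes, and 0 to 190 on leaving out 1 library. That between 72 and 48 hpf called 674, 351 to 1191 on leaving out 1 library and 108 with source-series controls at both ages. The change with age in clean water called 2812 genes, and 2068 to 3007 on leaving out 1 library. The columns do not carry the replicate numbers of the labels. A replicate block on the numbers in the library names, added after seeing the data, called 98 genes, 97 of them among the 244. Deviations from the group means correlated at -0.249, 0.006 and -0.102 within the 3 numbers, and at -0.156 to 0.211 between different numbers. With 3 libraries a group, these correlations cannot show whether the numbers pair the libraries, and the labels do not say. With 3 libraries a group and these depths, a gene not called cannot be said to be unchanged.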

Other observations

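Some pathways of mitochondria were noticed among the largest rises, and each was then written out whole. They were chosen after their values were seen, so their counts are descriptions without a test. Of 21 genes that build iron-sulfur clusters, 8 were called higher and none lower, with a median log2 fold change of 0.49 and 20 positive values. They were the scaffold ISCU, the sulfur donor NFS1, the chaperone HSPA9, ISCA1 and LIAS of the mitochondrion, and NUBP1, NUBP2 and NARFL, which serve the cytosolic route. The library medians were 0.63 in T4, 0.51 in T5 and 0.35 in T6. At 24 hpf 7 of 20 and at 72 hpf 8 of 20 were called higher, and against source-series controls 5 were. Of 6 genes of succinate dehydrogenase and its assembly, SDHA, SDHB, SDHAF2 and SDHAF4 were higher. Of 12 genes for cytochrome c oxidase assembly, COA7, COX10, HCCS, SCO1 and SURF1 were higher, with a median of 0.54. Of 14 mitochondrial proteases and processing enzymes, 7 were higher, with a median of 0.5: CLPP, CLPX, LONP1, PITRM1, PMPCB, SPG7 and XPNPEP3. Against source-series controls, 4 of the 6 succinate dehydrogenase genes were called higher and 1 lower. Among the 12 oxidase assembly genes 3 were higher there, with a median of 0.27, and among the 14 proteases 3, with a median of 0.32.

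A list of excision repair genes was treated in the same way. It also held the ribonucleotide reductase subunits RRM2 and RRM2B, which are not excision repair enzymes, and the counts below include them. Of 29 tested, 7 were called higher and none lower, with a median of 0.26. The damage sensors DDB2, XPC and XPA, the base glycosylases NEIL1 and NTHL1, and the ribonucleotide reductase subunits RRM2 and RRM2B made up the 7. DDB2, XPC and RRM2B are also in the p53 list and RRM2 in the cell-cycle list. Against source-series controls 7 were called higher. At 24 hpf 6 of 29 were called higher and none lower, with a median of -0.03. At 72 hpf 6 of 27 were called higher and 3 lower, with a median of -0.2.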
